A study of Rattus norvegicus with 12 samples.

Results

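Il1b, Il6 and Ptgs2 are 3 genes of acute inflammation, followed here in urethral tissue of male rats by RNA sequencing. They were chosen by Ensembl gene ID (ENSRNOG00000004649 for Il1b, ENSRNOG00000010278 for Il6 and ENSRNOG00000002525 for Ptgs2), with earlier results of these data known, and they are 3 of 32623 gene IDs in the count table. All 3 passed the filter on low counts and are among the 17521 genes tested. The count table gives IDs without symbols, and the pairing of these IDs with their symbols was taken as given and was not checked against an annotation of the same build.

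The 12 libraries came from 4 groups of 3: a sham group without urethral injury, a group with urethral injury, a group with injury and rapamycin (an inhibitor of the mTOR kinase), and a group with injury and a tetrahedral DNA nanostructure, a particle folded from synthetic DNA strands and abbreviated TDN. The injury was made mechanically. The labels name no strain, age, dose, route or time of harvest, and do not state which rats received vehicle. Nothing in them says that each library is its own animal, and every p-value below reflects the variation among libraries, part or all of which may be technical. The study set out to profile how gene expression shifts when the urethra is injured and when TDN is given.

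Interleukin 1 beta, the product of Il1b, is made mainly by activated myeloid cells as a precursor that caspase-1 cuts to its active form, and it acts through a receptor on many cell types. Interleukin 6 is a secreted cytokine that signals through the shared receptor chain gp130 to STAT3 and drives the acute phase response. Ptgs2 encodes cyclooxygenase-2, the inducible enzyme that makes the precursor of prostaglandins, and it is often induced by the same signals, interleukin 1 among them.

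Libraries held 44765817 to 55928721 counts. Rapamycin replicate 2 stood apart, with 17475 detected genes beside 18659 to 19254 in the other libraries and a scaling factor (TMM, the trimmed mean of log ratios) of 0.660 beside 0.873 to 1.13. Levels are given as CPM, each count relative to the scaled total of its library. In bulk tissue, more cells that express a gene and more RNA per cell cannot be told apart. The lists of pathway genes and of cell type markers had been drawn up by symbol and could not be applied to the IDs, so neither the tissue label nor the share of leukocytes was checked.

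Il1b was low and even in sham tissue, at 4.10, 4.71 and 4.52 CPM in replicates 1 to 3. The injury libraries spread from sham level upwards, with 161 CPM in replicate 1, 20.5 CPM in replicate 2 and 2.94 CPM in replicate 3. Replicate 3, with 159 counts, lay below every sham library, while the other 2 injury libraries lay above them all. With rapamycin the level was high in every library, at 256, 117 and 99.7 CPM. With TDN it was 11.4, 6.80 and 7.83 CPM, a narrow band above every sham library and below every rapamycin library.

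The order of the Il1b group means was sham (4.44 ± 0.31 CPM), TDN (8.69 ± 2.43 CPM), injury (61.4 ± 86.5 CPM) and rapamycin (157 ± 86 CPM; SD, n = 3 each). Injury overlapped with each of the other groups, and sham, TDN and rapamycin did not overlap with one another. Such separations were common. TDN lay wholly above sham for 15.7% of tested genes, rapamycin above sham for 23.8% and TDN below rapamycin for 17.4%. The share of genes with all of these at once was not computed. The spread within injury was wide for this gene: its SD of log2 CPM was 2.88, larger than that of 99.1% of tested genes, whose median SD in this group was 0.51.

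Il6 was at the limit of detection in sham tissue, with 0, 9 and 0 counts in replicates 1 to 3. Counts of 0 allow up to 0.0549 and 0.0551 CPM in these libraries, taking 3 counts as the limit, and the 9 counts are 0.158 CPM. Injury libraries held 13.5, 0.770 and 0.296 CPM, from 691, 40 and 16 counts. Every injury library was thus above every sham library, as for 19.4% of tested genes, but replicate 1 held most of the counts. Rapamycin libraries held 2.83, 5.55 and 0.465 CPM, all above sham as well, as for 23.8% of tested genes. TDN libraries held 0, 0.199 and 0.331 CPM, from 0, 11 and 18 counts, and overlapped with sham and with injury but not with rapamycin.

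In order, the Il6 group means were 0.0526 ± 0.0911 CPM (sham), 0.176 ± 0.166 CPM (TDN), 2.95 ± 2.55 CPM (rapamycin) and 4.87 ± 7.51 CPM (injury) (SD, n = 3 each). Sham and TDN overlapped, as did rapamycin and injury, and both of these neighbouring pairs differed by less than their spread. The middle pair, TDN and rapamycin, did not overlap, with TDN wholly below rapamycin as for 17.4% of tested genes.

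Ptgs2 was measurable in all libraries and did not separate any pair of groups. Sham libraries held 8.45, 5.45 and 8.89 CPM, and injury libraries 18.2, 2.46 and 4.26 CPM. Injury replicate 1 was the highest of all 12 libraries and replicate 2 the lowest. Rapamycin libraries held 16.4, 6.02 and 11.4 CPM, and TDN libraries 6.63, 2.91 and 4.87 CPM. The group means, in order, were 4.80 ± 1.86 CPM (TDN), 7.60 ± 1.87 CPM (sham), 8.30 ± 8.61 CPM (injury) and 11.3 ± 5.2 CPM (rapamycin) (SD, n = 3 each), and every group overlapped with every other.

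Replicate 2 had the lowest Ptgs2 level in all 4 groups, and replicate 1 the highest in injury, rapamycin and TDN. Il1b was also highest in replicate 1 of these 3 groups, but in sham replicate 1 was its lowest. Il6 had no such order, being highest in replicate 1 of injury, replicate 2 of rapamycin and replicate 3 of TDN. The labels do not say that a number marks a litter, day or batch. With the replicate number as a block in the edgeR fit, none of 21 member results changed its call, and the log2 fold change of Ptgs2 in injury against sham was -0.29.

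**Figure D1:**
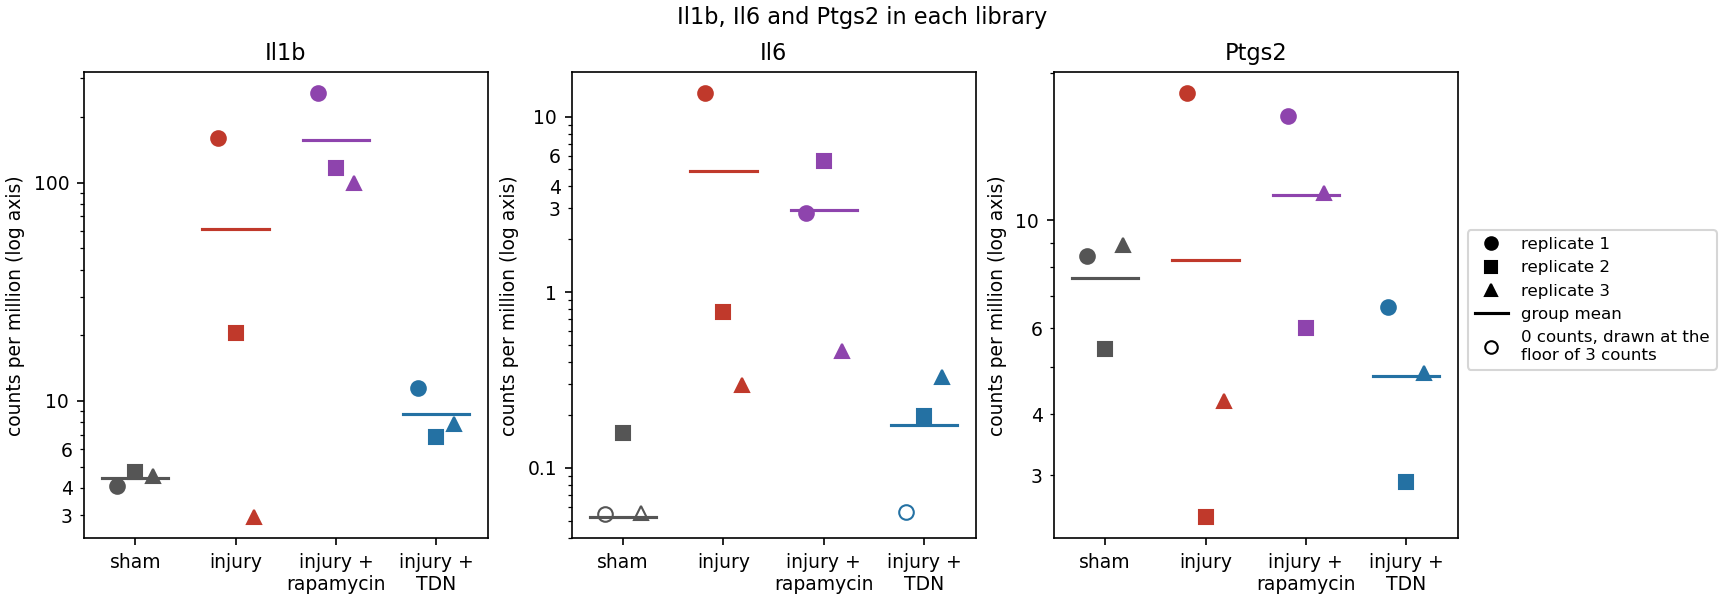
Level of Il1b, Il6 and Ptgs2 in CPM (log axis) in each of the 12 libraries by group, with a line at each group mean and open symbols for libraries with 0 counts. Il1b runs from 4.10 to 4.71 CPM in sham and from 2.94 to 161 CPM in injury, while the Ptgs2 ranges of all groups overlap.

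The regions just before the 3 genes are shown as a description of their sequence. Whether they relate to the levels of the 3 transcripts was not tested. RefSeq held an annotated start for 3 of 3 members (build GRCr8, which is not the build of the counts). The 250 bases before each start were chr3:137036582-137036831 on the minus strand for Il1b, chr4:5894576-5894825 on the minus strand for Il6 and chr13:64713813-64714062 on the plus strand for Ptgs2. They are written 5′ to 3′ along the transcript, with capitals marking matches to any of 6 motifs sought on both strands.
Il1b: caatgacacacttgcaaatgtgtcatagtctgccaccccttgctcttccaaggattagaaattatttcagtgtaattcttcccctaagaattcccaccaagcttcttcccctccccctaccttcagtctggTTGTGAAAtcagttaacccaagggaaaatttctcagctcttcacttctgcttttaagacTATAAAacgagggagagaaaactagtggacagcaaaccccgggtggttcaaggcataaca
Il6: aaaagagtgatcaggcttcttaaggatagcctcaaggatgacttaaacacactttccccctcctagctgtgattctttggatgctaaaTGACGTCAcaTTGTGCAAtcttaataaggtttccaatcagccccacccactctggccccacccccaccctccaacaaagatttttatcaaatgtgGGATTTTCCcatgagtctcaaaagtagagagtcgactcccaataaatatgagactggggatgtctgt
Ptgs2: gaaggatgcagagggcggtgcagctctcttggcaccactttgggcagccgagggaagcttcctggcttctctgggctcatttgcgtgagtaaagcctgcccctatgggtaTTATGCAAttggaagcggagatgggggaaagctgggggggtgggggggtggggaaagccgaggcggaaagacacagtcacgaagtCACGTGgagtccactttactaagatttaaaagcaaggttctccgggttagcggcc

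The motif of NF-kappaB, a master factor of inflammatory transcription, was searched by its core GGANTTNCC and occurred before Il6 alone of the 3, as GGATTTTCC from 67 to 59 bases before the start. It occurs in 3.03% of 27457 such windows of rat genes. The cyclic AMP response element TGACGTCA also occurred before Il6 alone, 162 to 155 bases before the start (1.70% of windows). A C/EBP motif, searched as TTNNGNAA, was found in all 3 windows, a form that 36.8% of windows hold. The E-box CACGTG was found before Ptgs2 (5.79% of windows) and TATAAA before Il1b (13.1%). The AP-1 motif TGANTCA was in none of the 3 (6.36%). These are matches of letters in one window, and no match says nothing about sites elsewhere.

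Injury was compared with sham to ask whether the injured urethra held more of these transcripts. The fitted change was an increase for Il1b and Il6 and close to none for Ptgs2, and 0 of 3 members passed the test, where 0.571% of tested genes were called higher and 0.0799% lower. Il1b had a log2 fold change of 3.79 (SE 1.08, 95% interval 1.41 to 6.17, edgeR quasi-likelihood test, adjusted p = 0.105). Il6 had a log2 fold change of 6.45 (SE 2.02, edgeR adjusted p = 0.123), which rests on the 9 counts of one sham library. The libraries of both groups did not overlap for Il6, as for 19.4% of tested genes in the same direction. For Ptgs2 the log2 fold change was 0.13 (SE 0.67, 95% interval -1.35 to 1.60, edgeR adjusted p = 0.914), an interval that holds both a fall and a rise of more than 1 log2 unit.

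Single injury libraries set these values. Without injury replicate 1 the log2 fold changes were 1.40 for Il1b, 3.27 for Il6 and -1.18 for Ptgs2 (edgeR adjusted p = 0.481, 0.513 and 0.451), and without sham replicate 2 that of Ptgs2 was -0.005. Without injury replicate 3 they were 4.35 for Il1b and 7.003 for Il6, both past the threshold (edgeR adjusted p = 0.0156 and 0.0433). DESeq2 also put both past it (adjusted p = 0.00143 for Il1b and 0.00259 for Il6). Both settings called many more genes of all kinds, with 2117 genes without injury replicate 3 and 1846 by DESeq2, beside 114 in the edgeR fit of all libraries. Because the fit weighs mean levels, replicate 1 counts for much in it: on mean log2 CPM, where each library counts alike, the difference of injury from sham was 2.26 for Il1b, 4.53 for Il6 and -0.36 for Ptgs2 (exact permutation p = 0.4, 0.1 and 0.7, where 0.1 is the smallest possible for 3 against 3). These differences were 0.81 for Il1b and 2.96 for Il6 without injury replicate 1, and 3.68 for Il1b without injury replicate 3.

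Tissue with injury and rapamycin was compared with sham. No group had rapamycin without injury, so injury and drug cannot be told apart here. Il1b was higher than in sham. Its log2 fold change was 5.15, or 35.4-fold (SE 1.15, 95% interval 2.61 to 7.68, edgeR adjusted p = 0.0298), with all 3 rapamycin libraries above all sham libraries. In this comparison 9.54% of tested genes were called higher and 2.8% lower, and Il1b was the 1 member called of 3. Il6 had a log2 fold change of 5.72 (SE 1.97, edgeR adjusted p = 0.0679), also without overlap, and Ptgs2 one of 0.57 (SE 0.67, 95% interval -0.91 to 2.05, edgeR adjusted p = 0.523). Libraries did not overlap in the upward direction for 23.8% of tested genes.

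The Il1b call held without rapamycin replicate 2, the library that stood apart (log2 fold change 5.38, edgeR adjusted p = 0.0431). It was lost without any 1 sham library (edgeR adjusted p = 0.117, 0.124 and 0.103), without rapamycin replicate 1 (0.0568) or without any 1 TDN library (0.0503, 0.0512 and 0.0522), with log2 fold changes of 4.61 to 5.22. Over all alternatives the adjusted p ran from 1.68e-06 to 0.124. For Il6 the log2 fold change was 4.94 without rapamycin replicate 2 (edgeR adjusted p = 0.141) and 6.23 without rapamycin replicate 3 (adjusted p = 0.0317). Without injury replicate 1 or 3, libraries outside the comparison, Il6 also passed (edgeR adjusted p = 0.0492 and 0.0458). Leaving out rapamycin replicate 3 called 7249 genes in all, and leaving out injury replicate 1 or 3 called 2640 or 3936, beside 2162 with every library kept.

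TDN tissue was compared with sham to ask what remained above the uninjured level. Il1b was 1.95-fold the sham level in the fit (log2 fold change 0.97, SE 0.98, 95% interval -1.19 to 3.13, edgeR adjusted p = 1), and every TDN library was above every sham library, as for 15.7% of tested genes. In a fit of these 6 libraries alone, which leaves the wide spread of the other groups out, the log2 fold change was 0.99 and passed the threshold (SE 0.22, edgeR adjusted p = 0.0490), as 1 of 993 genes called in that fit. The log2 fold change was 1.69 for Il6 (SE 1.83) and -0.66 for Ptgs2 (SE 0.67), both with an edgeR adjusted p of 1. Il6 was at 0.88 without TDN replicate 3 and at 6.20 without sham replicate 2, when no sham count was left, and Ptgs2 ran from -0.97 to -0.40 over the left-out libraries. In this comparison edgeR called 0% of tested genes in the fit of all libraries, with 930 (5.31%) at an unadjusted p under 0.05. A share near 0.05 would pass that unadjusted threshold with no difference between groups. DESeq2 called 310 genes, limma voom 0, and the weighted form of voom, which down-weights variable libraries, 1959.

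Against injury alone, TDN tissue held less of all 3 transcripts on average, and none of the 3 passed the test. The log2 fold change was -2.82 for Il1b (SE 1.03, 95% interval -5.10 to -0.55), -4.77 for Il6 (SE 1.82, 95% interval -8.78 to -0.75) and -0.79 for Ptgs2 (SE 0.67, 95% interval -2.28 to 0.70). The unadjusted p was 0.0198 for Il1b and 0.0243 for Il6 in the model across all genes, and the edgeR adjusted p was 0.650, 0.650 and 0.657. On mean log2 CPM the differences were smaller, at -1.33, -3.36 and -0.34 (exact permutation p = 0.6, 0.2 and 0.9). TDN and injury libraries overlapped for each gene. edgeR called 0% of genes here, beside 42 genes by DESeq2, 0 by voom and 6581 by weighted voom. At an unadjusted p under 0.05 edgeR had 1074 genes (6.13%), where a share near 0.05 would pass with no difference between groups.

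The size of this difference came largely from injury replicate 1. Without it, the log2 fold change of TDN against injury was -0.43 for Il1b, -1.58 for Il6 and 0.52 for Ptgs2 (edgeR adjusted p = 0.990 for each). On mean log2 CPM without this library Il1b was 0.12 higher in TDN than in injury, since injury replicate 3 lay below all TDN libraries.

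Rapamycin was also compared with injury alone. The log2 fold change was 1.36 for Il1b (SE 0.98, 95% interval -0.80 to 3.52), -0.73 for Il6 (SE 1.54, 95% interval -4.12 to 2.67) and 0.44 for Ptgs2 (SE 0.67, 95% interval -1.04 to 1.92), with edgeR adjusted p-values of 0.902, 0.923 and 0.911. Without injury replicate 1 the values were 3.75, 2.46 and 1.74 (edgeR adjusted p = 0.581, 0.620 and 0.615), so that the sign for Il6 in the fit turned with this library. On mean log2 CPM with all libraries Il6 was already higher in rapamycin than in injury, by 0.38 (exact permutation p = 0.9). Without injury replicate 2 the value for Ptgs2 was -0.028, and without replicate 3 that for Il1b was 0.80. Here edgeR called 0% of genes, beside 30 genes by DESeq2 and 0 by plain or weighted voom. At an unadjusted p under 0.05 edgeR had 767 genes (4.38%), where a share near 0.05 would pass with no difference between groups.

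The 2 treated groups were then set against each other, and Il1b and Il6 separated them while Ptgs2 did not. TDN tissue held 18.1-fold less Il1b than rapamycin tissue in the fit (log2 fold change -4.18, SE 1.10, 95% interval -6.60 to -1.76, edgeR adjusted p = 0.161), with no overlap between libraries. Il6 was also lower without overlap (log2 fold change -4.04, SE 1.77, edgeR adjusted p = 0.197), and Ptgs2 overlapped (log2 fold change -1.23, SE 0.68, edgeR adjusted p = 0.258). Libraries of these groups did not overlap in the downward direction for 17.4% of tested genes. The edgeR fit called 0% of genes, with 4260 (24.3%) at an unadjusted p under 0.05, beside 1577 by DESeq2, 0 by voom and 5993 by weighted voom. Il1b was among the DESeq2 calls (log2 fold change -4.21, adjusted p = 0.000939), and edgeR called it without rapamycin replicate 3 (adjusted p = 0.0291), a setting that called 4788 genes. Without rapamycin replicate 2 the log2 fold change was -4.38 for Il1b and -3.23 for Il6 (edgeR adjusted p = 0.304 and 0.437).

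**Figure D2:**
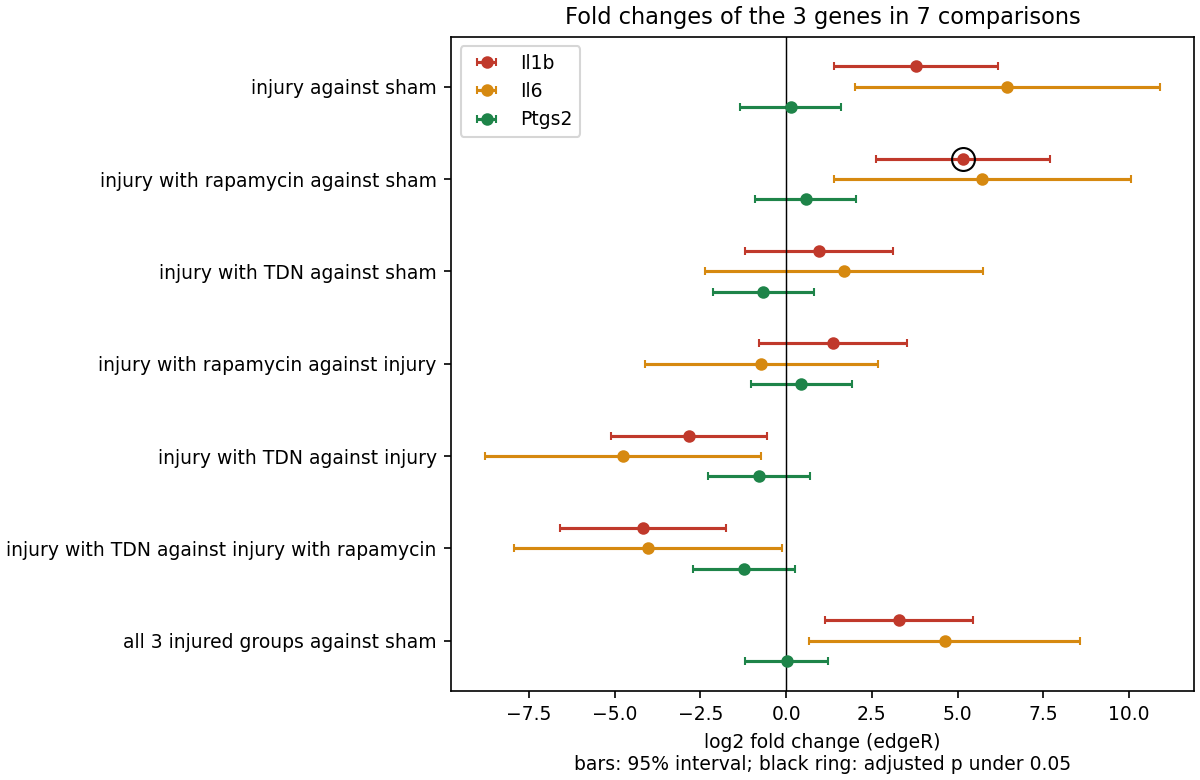
log2 fold changes from edgeR with 95% intervals for the 3 genes in 7 comparisons, with a black ring where the adjusted p is under 0.05. Il1b in rapamycin against sham, at 5.15, is the 1 value with a ring, and the Ptgs2 intervals include 0 in every comparison.

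All 9 injured libraries were set against the 3 sham libraries as well. The log2 fold change of the average of the 3 injured groups was 3.30 for Il1b (SE 0.98, edgeR adjusted p = 0.0930), 4.62 for Il6 (SE 1.79, edgeR adjusted p = 0.149) and 0.01 for Ptgs2 (SE 0.55, 95% interval -1.20 to 1.22, edgeR adjusted p = 0.992), so that none of 3 members passed where 1.01% of tested genes were called higher and 0.508% lower. Of the injured libraries, 8 of 9 were above every sham library for Il1b, 8 of 9 for Il6 and 3 of 9 for Ptgs2. The share of all tested genes with such counts was not computed, so whether these counts are unusual is not known. By a different measure, single injured groups lay wholly above sham for 15.7% (TDN), 19.4% (injury) and 23.8% (rapamycin) of tested genes. The exact two-sided permutation p on log2 CPM was 0.0455 for Il1b, 0.0364 for Il6 and 0.782 for Ptgs2, and 0.233, 0.233 and 0.842 when adjusted over 28 tests. This test takes the 9 injured libraries as alike, although they had different treatments and TDN and rapamycin did not overlap for Il1b or Il6. Left-out libraries moved the log2 fold change of Ptgs2 between -0.42 and 0.20.

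Il1b was then expressed per Ptgs2 count within each library, a ratio that needs no scaling between libraries and that was added after the levels were seen. Sham libraries held 0.485, 0.865 and 0.508 Il1b counts per Ptgs2 count. Injury libraries held 8.84, 8.31 and 0.691, so that replicates 1 and 2, which differed 7.85-fold in Il1b level, had similar ratios, and replicate 3 lay in the sham range. Rapamycin libraries held 15.7, 19.3 and 8.75, and TDN libraries 1.72, 2.34 and 1.61. TDN lay above sham and below rapamycin without overlap, as the Il1b level alone already did, while the Ptgs2 levels overlapped between all groups. How often ratios of other genes separate these groups was not computed.

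Mean ratios were 0.619 ± 0.213 (sham), 1.89 ± 0.39 (TDN), 5.94 ± 4.56 (injury) and 14.6 ± 5.4 (rapamycin) (SD, n = 3 each). On the log2 scale the ratio in TDN differed by 1.64 from sham and by -2.89 from rapamycin (exact permutation p = 0.1 for each, the smallest possible; adjusted p = 0.233). Over all 9 injured libraries it was 2.94 above sham (exact permutation p = 0.0182, adjusted p = 0.233), a test that takes the 3 injured groups as alike. Since the ratio was chosen after the levels were seen, these p-values are no separate support for the differences in level. Counting error is small beside these differences: the exact binomial 95% interval was 0.411 to 0.570 in sham replicate 1 and 1.38 to 1.88 in TDN replicate 3.

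**Figure D3:**
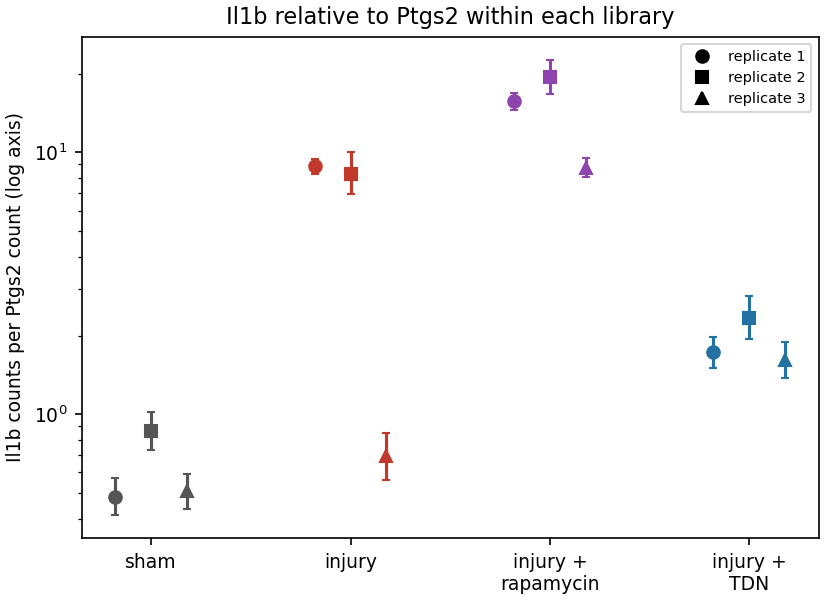
Il1b counts per Ptgs2 count (log axis) in each library by group, with exact binomial 95% intervals that cover counting error only. The TDN libraries at 1.61 to 2.34 lie between sham (0.485 to 0.865) and rapamycin (8.75 to 19.3), and injury replicate 3 at 0.691 lies in the sham range.

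Il6 and Il1b did not keep a fixed proportion either. There were 84.3, 37.6 and 101 Il6 counts per 1000 Il1b counts in the injury libraries and 11.1, 47.6 and 4.66 in the rapamycin libraries. The groups overlapped through injury replicate 2 and rapamycin replicate 2. Sham libraries held 0, 33.5 and 0 and TDN libraries 0, 29.2 and 42.3, values that rest on at most 18 Il6 counts each.

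The likeness of each member to other genes was measured as the Pearson correlation of log2 CPM over the 12 libraries, which share groups and treatments, with 14730 genes of at least 1 CPM on average. The 2 genes most like Il1b had r = 0.984 each, and the first, ENSRNOG00000036603, had mean levels of 1.58, 24.2, 40.0 and 3.44 CPM in sham, injury, rapamycin and TDN, the same order of groups as Il1b. The 2 most like Il6 had r = 0.958 and 0.948; the first, ENSRNOG00000001058, ran from 32.1 CPM in sham to 46.8 CPM in injury, a much narrower range. For Ptgs2 the highest values were 0.879 and 0.867. These are the highest of many values and are given as a description. By rank correlation other genes came first for each member, with 0.993 for Il1b, 0.984 for Il6 and 0.902 for Ptgs2.

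**Figure D4:**
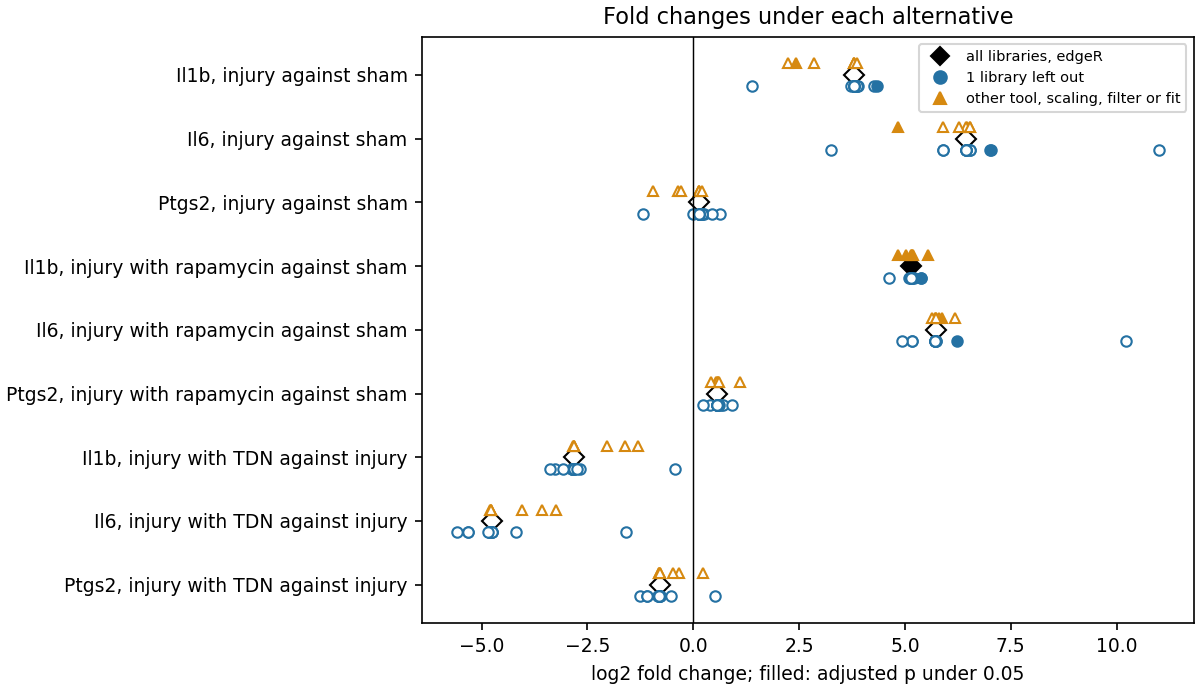
log2 fold changes of the 3 genes in 3 comparisons with all libraries in edgeR (diamonds), with 1 library left out (circles) and with another tool, scaling, filter or fit (triangles), filled where the adjusted p is under 0.05. Values for Il1b in rapamycin against sham stay between 4.61 and 5.55, while those for Il1b in TDN against injury run from -3.38 to -0.43.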

How the data were processed

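Total RNA of urethral tissue was turned into poly(A)-enriched Illumina libraries read from both ends, per the labels' protocols. The authors deposited raw counts per gene with no scaling, made on the rat build Rnor 6.0 (from the submitters' processing notes). How reads were aligned, counted and assigned to strand, and with which annotation, is not given in the sources used here. Of 15 columns of libraries, 12 matched labelled samples and the other 3 stayed out. RefSeq's rat gene table (47357 genes, GRCr8) gave symbols for 0 of the IDs. The 51 other pathway genes and 37 cell type markers listed by symbol were therefore not evaluated, and the most alike gene is given by ID for Il1b and Il6 alone.

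Tests used edgeR 4.0.16 (quasi-likelihood, R 4.3.3) on all 12 libraries, with TMM scaling, the default filter, group means as coefficients and Benjamini-Hochberg adjustment over 17521 genes. A gene was called at an adjusted p under 0.05. The SE is the absolute log2 fold change divided by root F, and 95% intervals use a t quantile of 2.21. Log2 CPM took a prior count of 2. Exact two-sided permutation tests compared mean log2 values, adjusted over 28 tests. DESeq2 1.42.0, limma 3.58.1 voom, other scalings, filters and sample sets, a replicate block and left-out libraries served as alternatives. On data simulated for injury against sham, edgeR recovered 55 of 100 genes changed 4-fold and 84 of 100 changed 16-fold (17255 genes). The simulation gave each gene the same spread in all groups and changed only genes of at least 1 CPM on average. In the real data the median SD of log2 CPM was 0.51 in injury and 0.17 in sham, so this recovery need not hold there. Genes to be named were the 3 members, listed genes that were called or are receptors, and the 2 most alike genes per member. Members, lists and motifs were chosen with earlier results of these data known. Count intervals and floors cover counting error only.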

Additional observations from a re-analysis of the deposited data

Results flagged for a closer look

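Every rapamycin library was above the mean log2 CPM of Il1b in the injury group, and every TDN library was below it. That mean is of widely spread injury libraries (log2 CPM 7.33, 4.36 and 1.58), which overlapped with both treated groups. Without injury replicate 1, TDN was 0.12 above injury on this scale. The share of all genes with such a pattern was not counted. The pattern requires TDN wholly below rapamycin, which held for 17.4% of tested genes. The mean difference between TDN and rapamycin was -4.08 on the log2 CPM scale (exact permutation p = 0.1, the smallest possible). The difference itself, as fitted by edgeR, had an adjusted p of 0.161 (0.000939 to 0.371 over the alternatives).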

How the results depend on the processing

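Values here are log2 differences. DESeq2 put past the threshold Il1b (3.79) and Il6 (6.54) in injury against sham, Il6 in rapamycin against sham (5.87), Il1b in TDN against rapamycin (-4.21), and Il1b (3.31) and Il6 (4.72) over all injured groups. Weighted voom did so for Il1b (2.44) and Il6 (4.85) in injury, Il6 in rapamycin (5.73), Il1b (-4.72), Il6 (-4.13) and Ptgs2 (-1.84) in TDN against rapamycin, and Il1b (2.94) and Il6 (4.06) over all injured groups. A fit of only the libraries compared did so for Il1b in TDN against sham (0.99), where Il6 fell under the filter and got no value. The sign turned, with no call on either side, for Ptgs2 in injury against sham (voom -0.37, weighted -0.96) and over all injured groups (voom -0.18, weighted -0.19), for Ptgs2 in TDN against injury (weighted 0.24) and for Il6 in rapamycin against injury (voom 0.28, weighted 0.89). RLE scaling and no filter changed no call or sign of a member.

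Leaving out 1 library gave, against sham, 1.40 to 4.35 for Il1b, 3.27 to 10.995 for Il6 and -1.18 to 0.63 for Ptgs2 in injury, and 4.61 to 5.39 for Il1b and 4.94 to 10.22 for Il6 in rapamycin. The upper Il6 values are without sham replicate 2, set against 0 sham counts, and are no estimates. It gave -1.58 to 2.46 for Il6 and -0.028 to 1.74 for Ptgs2 in rapamycin against injury, -1.26 to 0.52 for Ptgs2 in TDN against injury, -4.43 to -3.62 for Il1b, -4.84 to -3.23 for Il6 and -1.56 to -0.85 for Ptgs2 in TDN against rapamycin, and 2.50 to 3.49 for Il1b, 3.56 to 9.14 for Il6 and -0.42 to 0.20 for Ptgs2 over all injured groups. For differences in mean log2 CPM the ranges were -2.75 to 0.12 (Il1b) and -0.95 to 0.48 (Ptgs2) in TDN against injury, -0.72 to 1.95 for Il6 in rapamycin against injury, 0.81 to 3.68 (Il1b), 2.96 to 5.63 (Il6) and -1.19 to 0.25 (Ptgs2) in injury against sham, and 2.34 to 3.15 for Il1b and 3.02 to 4.32 for Il6 over all injured groups. The ratio of Il1b to Ptgs2 over all injured groups ranged from 2.68 to 3.28.

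The replicate block, which takes the number in the titles as a shared factor, changed no call among 21 member results and turned 2 signs, to -0.29 for Ptgs2 in injury against sham and -0.21 over all injured groups. Of 18 same-numbered pairs of libraries 6 deviated together with a correlation over 0.1. The highest, 0.55, was injury replicate 3 with rapamycin replicate 3. Pairs with different numbers also passed 0.1, up to 0.35 for injury replicate 1 with rapamycin replicate 2. Of 12 libraries, 5 correlated best with one of their own number. The shares to expect if the numbers meant nothing were not computed, so both counts are a description only. What the number stands for is not stated, and whether same-numbered libraries shared a batch was not tested.

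Counts of called genes moved too: for injury against sham from 114 to between 0 and 9322, for rapamycin against sham from 2162 to between 1 and 8440, and over all injured groups from 266 to between 0 and 10199. From 0 they reached 4788 (without rapamycin replicate 3) and 5993 (weighted voom) in TDN against rapamycin, 993 (only the libraries compared) and 1959 (weighted voom) in TDN against sham, 6581 (weighted voom) in TDN against injury and 30 (DESeq2) in rapamycin against injury. The cause of these shifts was not tested.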
